A study of Trachemys scripta with 24 samples.

Results

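The subject of this report is the pair mir-143 and mir-145 in turtle plasma, taken as every entry of the deposited miRNA table whose family number is exactly that of mir-143 or mir-145. There are 16 such entries of 1994 in all, namely the arms named 5p and 3p of each hairpin under 4 species prefixes. The prefix cpi stands for Chrysemys picta, the painted turtle and the closest of the 4 to the animals studied, aca for Anolis carolinensis, ami for Alligator mississippiensis and oha for Ophiophagus hannah. Plasma came from 8 mature female pond sliders (Trachemys scripta) whose ovaries were removed through an endoscope-assisted prefemoral incision. EDTA blood was taken at 3 times, T0 at 24 h before the operation, T1 at 2.5 h and T2 at 36 h afterwards, which gave 8 libraries a time and 24 in all. T0 plasma precedes anesthesia. T1 and T2 plasma follow both the operation and an anesthesia with dexmedetomidine, ketamine, midazolam and alfaxalone, reversed by atipamezole and flumazenil. Food was withheld from before T0, and the turtles were feeding again before T2. Surgery, drugs and feeding therefore cannot be told apart. No untreated or sham-operated turtles were analysed here. The turtle behind a library is not labelled, hence libraries of the same turtle at different times entered every fit as if independent, and p-values measure the spread between these libraries.

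In other vertebrates the hairpins of mir-143 and mir-145 lie side by side and are cut from a shared primary transcript. Both miRNAs are abundant in the smooth muscle of vessel walls and hollow organs, where they are known to favour the contractile state of the muscle cell, and they are also found in fibroblasts. A hairpin gives 2 mature arms, of which usually the more abundant one is loaded into the silencing complex. Plasma carries miRNAs released from many tissues, and more cells releasing a miRNA cannot be told apart from more of it released per cell.

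The deposited values are raw read counts for each mature miRNA, every entry standing in 2 equal rows, of which 1 was used. Library totals as deposited ran from 45296 to 4085848, and the lowest belonged to T2 replicate t39, with 5837 counts on cpi entries where the T2 median was 106218. Levels are given as CPM, the counts scaled to a common library total over the 690 entries kept by a low-count filter, scaled by the TMM method of edgeR. The same read can be counted under several species, with 3.95 counts in the table for every cpi count, so a CPM here is a share of counts and not of reads. Of the 16 entries, 12 passed the filter, and the 4 that did not were the 3p entries of mir-143. Cell markers of other tissues were present in all libraries, among them cpi-mir-451-3p of red cells, with a median of 6294 CPM at T0, and cpi-mir-122-3p of liver, with 7296 CPM.

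Each of the 2 hairpins had most of its counts on the entry that bears the name of the minor arm in mammals. On cpi-mir-143, 7283 counts over all libraries fell on the entry named 5p and 162 on that named 3p, so that 5p took 97.8%. On cpi-mir-145, 5653 counts fell on 3p and 1074 on 5p, so that 3p took 84.0% of the pooled counts, with 66.6% at T0, 87.2% at T1 and 86.0% at T2. As background, the 3p arm of mir-143 and the 5p arm of mir-145 are the abundant ones in mammals. The same turn was seen elsewhere in the table. Among 37 other cpi hairpins with at least 100 counts whose main arm in mammals is well known, 36 had more counts on the entry of the other name, from cpi-mir-148a with 566170 counts on 5p and 18 on 3p to cpi-mir-223 with 27955 and 27461. The exception was cpi-mir-24-2. None of the 16 entries of mir-143 and mir-145 has the mark mirBase in the table, which 66 of the 1994 entries carry. Whether an arm name of the table is that of miRBase was not settled, and the names below are those of the table.

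**Figure D1:**
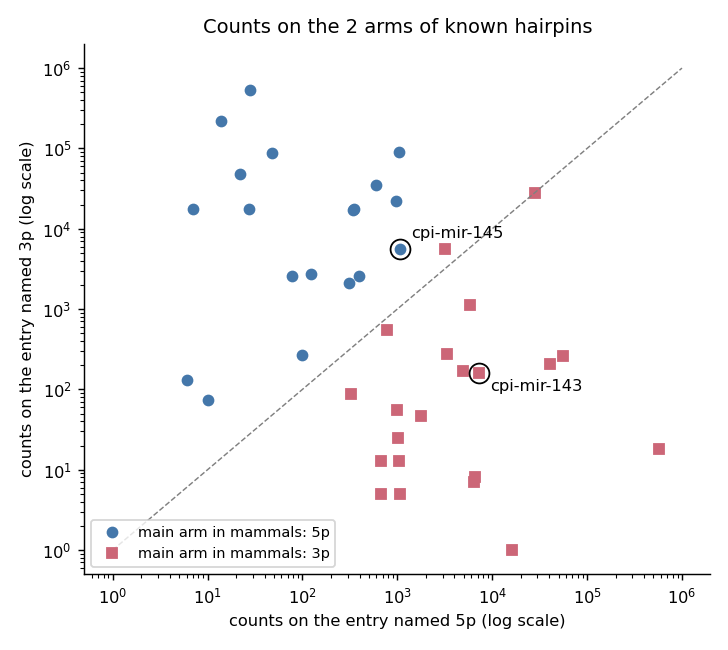
Counts over the 24 libraries on the entry named 5p (horizontal, log scale) and on that named 3p (vertical, log scale) for cpi hairpins with a well-known main arm in mammals, coloured by that arm, with equal counts on the dashed line. Hairpins with a 5p main arm lie above the line and those with a 3p main arm below it, cpi-mir-24-2 excepted, and the circled cpi-mir-143 (7283 and 162 counts) and cpi-mir-145 (1074 and 5653) lie among them.

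The entries of 1 miRNA under the 4 species are not replicates, and except for mir-143-3p they counted nearly the same reads. For mir-143-3p the totals were 162 for cpi, 123 each for aca and ami and 67 for oha. For mir-143-5p the totals were 7283 for cpi, 7256 each for aca and ami and 7235 for oha, and no library differed by more than 8 counts from its cpi value. For mir-145-3p, ami and oha had 5668 and 5638 counts against 5653 for cpi, but aca had 6296, or 111.4% of cpi. The excess was uneven over libraries, and T2 replicate t45 had 250 counts on aca and 131 on cpi. Results are given for cpi, with the other species beside them.

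By sequencing counts cpi-mir-143-5p was the more abundant member. At T0 it had between 147.6 and 801.6 CPM with a median of 286.3, at T1 between 300.4 and 1682 with a median of 679.7, and at T2 between 254.9 and 1307 with a median of 549.5. All 8 T1 libraries and 7 of 8 T2 libraries were above the T0 median. The time points overlapped all the same, since only 3 libraries at each time after surgery were above the highest T0 library, replicate t49. The highest T1 values were in replicates t38 and t32, with 1682 and 1642 CPM, and the highest T2 value was in replicate t33. In the paper's RT-qPCR miR-143-5p was not quantified, because its Cq was too high.

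cpi-mir-145-3p had between 36.7 and 178.4 CPM at T0 with a median of 118.5, between 42.2 and 1253 at T1 with a median of 325.0, and between 0 and 1454 at T2 with a median of 348.9. The spread between libraries was wider after surgery, with a coefficient of variation of 0.418 before it against 0.971 at T1 and 0.992 at T2. At T1, replicates t32, t35, t50 and t53 had between 498.9 and 1253 CPM, all above the highest T0 library, while t38, t41, t44 and t47 had between 42.2 and 151.1 CPM, within the T0 range. At T2, 5 of 8 libraries were above the highest T0 library and 7 of 8 above the T0 median. The remaining library, replicate t39, had 0 counts, which allows up to 101.3 CPM at its depth (3 counts, counting error only), close to the T0 median. In that library cpi-mir-143-5p had 34 counts.

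The less counted arms had lower medians. The medians of cpi-mir-145-5p over T0, T1 and T2 were 45.9, 81.8 and 71.1 CPM, with ranges of 6.15 to 81.0, 26.5 to 167.4 and 26.7 to 304.6, and 6 of 8 libraries were above the T0 median at each later time. In T0 replicate t37, T1 replicates t38 and t41 and T2 replicate t39 the 5p arm had more counts than 3p. The lowest T0 value, in replicate t40, was 1 count, and the highest T2 value was in t33, the library that was also highest for cpi-mir-143-5p at T2. cpi-mir-143-3p had 45 counts over all T0 libraries, 48 over those at T1 and 69 over those at T2, and it was at 0 in 3 T0 libraries and 1 T1 library. Of the T0 counts 30 were in replicate t46. A change of this entry was not detected, and counts this low limit what can be seen.

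**Figure D2:**
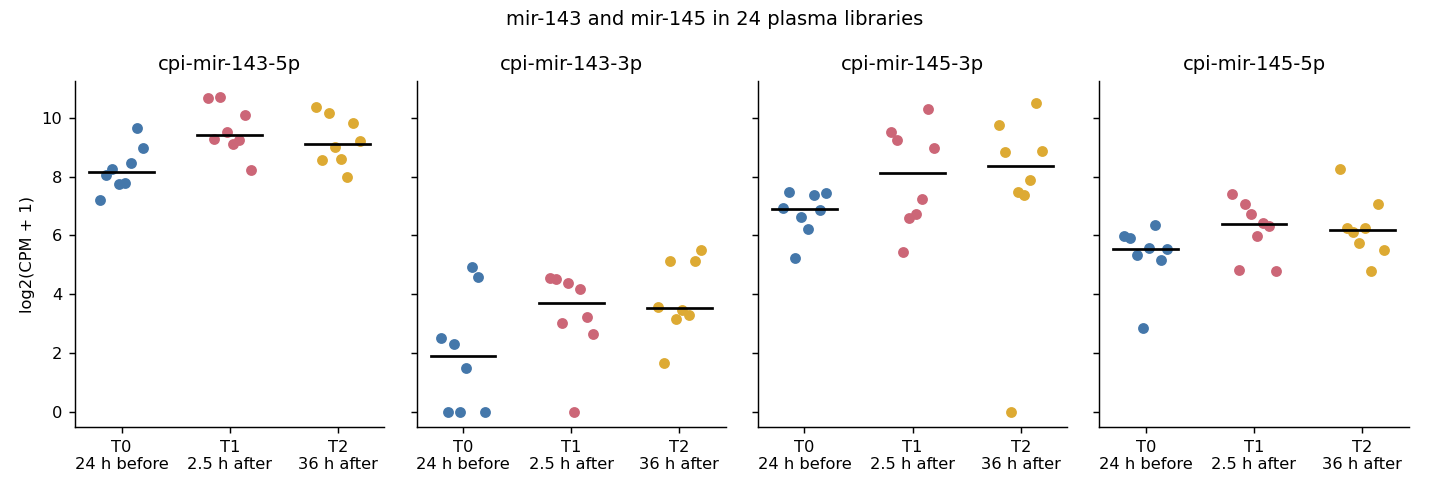
log2(CPM + 1) of the 4 cpi entries in each of the 24 libraries (points) at 24 h before, 2.5 h after and 36 h after surgery, with the median as a line. The median of cpi-mir-143-5p is 286.3 CPM before surgery, 679.7 at T1 and 549.5 at T2, and the T1 and T2 points of cpi-mir-145-3p spread more widely than those of T0, with replicate t39 at 0.

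To see whether the levels differed soon after surgery, T1 was set against T0 with the quasi-likelihood test of edgeR. The limits of the study were kept, namely 0.1 for the adjusted p and 1 for the size of the log2 fold change, and an entry within both was called. cpi-mir-143-5p was 2.59-fold higher at T1 (95% interval 1.45 to 4.61), a log2 fold change of 1.37 with a standard error of 0.41, and did not pass (adjusted p = 0.213 by edgeR). cpi-mir-145-3p was 3.65-fold higher (1.45 to 9.17), a log2 fold change of 1.87 with a standard error of 0.65, and did not pass either (adjusted p = 0.353 by edgeR). For cpi-mir-145-5p the log2 fold change was 0.83 with a standard error of 0.48 (adjusted p = 0.660 by edgeR). Of the 12 entries tested 0 were called by edgeR, where 0.58% of all 690 were. With an unadjusted p limit of 0.05 in place of the adjusted one, 8 of the 12 were higher at T1, namely the 4 entries each of mir-143-5p and mir-145-3p, against 4.06% of all entries. Those 8 entries stand for 2 miRNAs. The median log2 fold change was 1.37 over the 12 and 0.09 over all entries tested.

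The call differed between fits. The paper lists mir-143-5p as differing from T0 at T1, and mir-145-3p at both T1 and T2. DESeq2, the tool of the study, was run on all 3 time points with its own scaling and no filter before it, and it called 7 of 12 entries at T1, against 2.35% of all entries with an adjusted p. These were the 4 entries of mir-143-5p and all but the aca entry of mir-145-3p. Its values were close to those of edgeR, with a log2 fold change of 1.35 for cpi-mir-143-5p (adjusted p = 0.0738 by DESeq2) and 1.89 for cpi-mir-145-3p (adjusted p = 0.0948 by DESeq2). edgeR with the size factors of DESeq2, or with no filter, called neither, with an adjusted p of 0.220 and 0.308 for cpi-mir-143-5p. A single T0 library also mattered for mir-143. Without T0 replicate t49, the highest before surgery, the log2 fold change of cpi-mir-143-5p was 1.63 and it passed both limits (adjusted p = 0.0621 by edgeR). Of the 24 libraries left out in turn, this was the only 1 that gave a call. Without T1 replicate t32 the value was 1.15 (adjusted p = 0.515 by edgeR). T0 replicate t49 also had the highest summed muscle miRNAs of its time, 25016 CPM where the T0 median was 1744. T1 replicate t44 had a higher sum, 27900 CPM, with 552 CPM of cpi-mir-143-5p. Over the T0 libraries the r of this sum with cpi-mir-143-5p was 0.30 (adjusted p = 0.850, exact permutation). Whether muscle miRNAs bear on the value of t49 was not tested.

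The later time addresses whether the T1 difference, which edgeR did not call, was still seen at 36 h. T2 against T0 uses the same T0 libraries as the comparison before, so the 2 are not independent. At 36 h cpi-mir-145-3p was 4.06-fold higher than at T0 (1.61 to 10.3), a log2 fold change of 2.02 with a standard error of 0.65 (adjusted p = 0.296 by edgeR). cpi-mir-143-5p was 1.95-fold higher (1.10 to 3.46), a log2 fold change of 0.96 with a standard error of 0.40 (adjusted p = 0.577 by edgeR), and cpi-mir-145-5p had a log2 fold change of 1.05 with a standard error of 0.48 (adjusted p = 0.577 by edgeR). edgeR called 0 of the 12 entries, and 0% of all 690. With the unadjusted limit of 0.05 and the fold limit kept, 7 of the 12 were higher, against 2.17% of all entries. These were the 4 entries of mir-145-3p and all but the ami entry of mir-145-5p. cpi-mir-143-5p was within 0.05 (unadjusted p = 0.0249 by edgeR) and fell short of the fold limit alone. Without T2 replicate t33 the log2 fold change of cpi-mir-145-5p was 0.56, and without T0 replicate t40 it was 0.90. The unadjusted p was then 0.205 and 0.0679 by edgeR, so that its passing turned on single libraries. DESeq2 called 0 of 16 and 0.0502% of all entries, with an adjusted p of 0.951 for cpi-mir-143-5p and 0.487 for cpi-mir-145-3p. With the unadjusted limit of 0.05 and the fold limit, 12 of the 16 passed by DESeq2, against 69 of 1994 entries. These were entries of mir-143-5p, mir-145-3p and mir-145-5p, each counted under several species, and oha-mir-143-3p. The last had a log2 fold change of 2.59 on 8 counts over the T0 libraries and 39 over those at T2, and was below the filter used for edgeR. cpi-mir-143-5p was among the 12, with a log2 fold change of 1.01 (unadjusted p = 0.0128 by DESeq2).

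Set against T1 directly, T2 was lower for cpi-mir-143-5p by a log2 fold change of -0.41 (95% interval -1.23 to 0.41, adjusted p = 0.883 by edgeR), and higher for cpi-mir-145-3p by 0.15 (-1.12 to 1.43, adjusted p = 0.991 by edgeR) and for cpi-mir-145-5p by 0.22 (-0.76 to 1.19, adjusted p = 0.991 by edgeR). Of the 12 entries 0 were called, as were 0% of all 690, and 0 of the 12 passed with the unadjusted limit of 0.05, against 3.62% of all. No change from 2.5 h to 36 h was detected, and the intervals are wide. That of cpi-mir-143-5p reaches from a fall by most of its T1 difference of 1.37 to a further increase. For cpi-mir-145-3p the sign turned when T1 replicate t38, t41 or t44 or T2 replicate t51 was left out, to -0.03, -0.02, -0.0038 and -0.21, and for cpi-mir-145-5p it was -0.22 without T2 replicate t33.

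With both times after surgery set together against T0, the log2 fold change was 1.17 with a standard error of 0.36 for cpi-mir-143-5p and 1.95 with a standard error of 0.60 for cpi-mir-145-3p (adjusted p = 0.245 for both by edgeR). For cpi-mir-145-5p it was 0.94 with a standard error of 0.43 (adjusted p = 0.577 by edgeR). edgeR called 0 of the 12 entries and 0.145% of all, and with the unadjusted limit of 0.05 it was 8 of the 12, again higher, against 2.90% of all. DESeq2 called 8, all entries of mir-143-5p and mir-145-3p, against 2.16% of all entries, with an adjusted p of 0.0582 for cpi-mir-143-5p and 0.0468 for cpi-mir-145-3p. Without T0 replicate t49, cpi-mir-143-5p also passed here, with a log2 fold change of 1.42 (adjusted p = 0.0803 by edgeR).

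**Figure D3:**
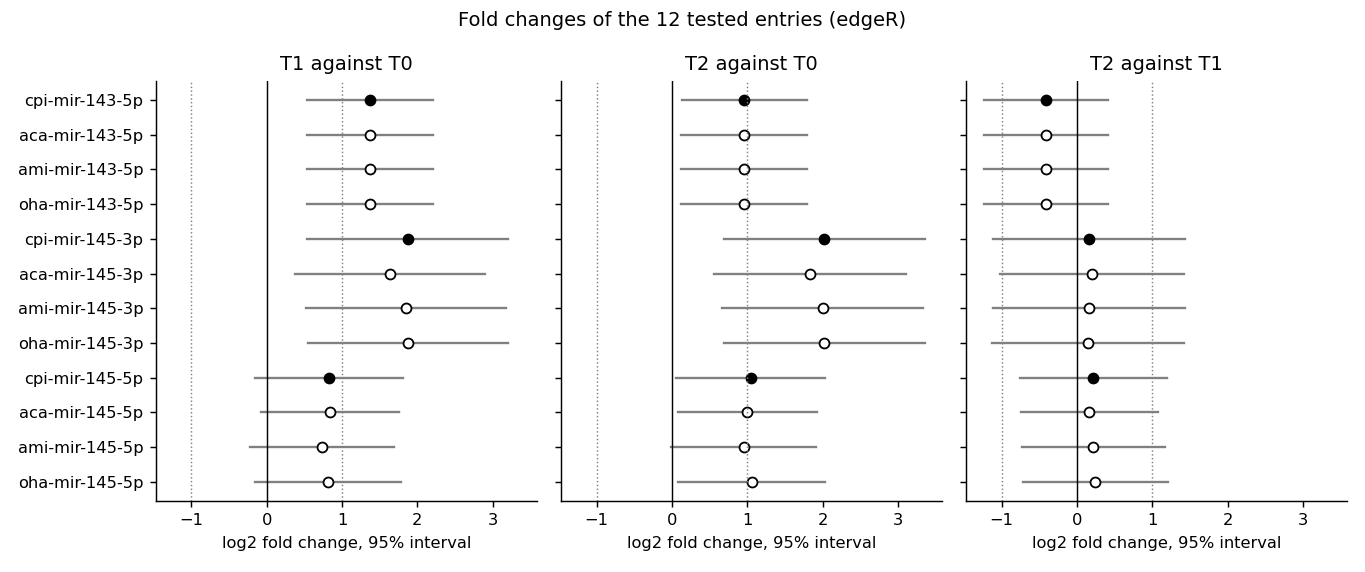
log2 fold change with its 95% interval for the 12 tested entries by edgeR in 3 comparisons, cpi entries as filled points and the other species as open ones, with the limits of -1 and 1 dotted. At T1 the intervals of mir-143-5p and mir-145-3p lie above 0, with 1.37 and 1.87 for cpi, and for T2 against T1 the intervals of the 12 entries include 0.

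Since both hairpins come from a shared transcript elsewhere, their ratio within a library was compared between time points, which needs no scaling between libraries. The log2 ratio of cpi-mir-143-5p to cpi-mir-145-3p, with 0.5 added to each count, was 1.49 ± 0.97 (SD, n = 8) before surgery, 1.59 ± 1.95 at T1 and 1.11 ± 2.15 at T2. Between these cpi entries mir-143-5p had more counts than mir-145-3p in every T0 library, with a lowest ratio of 1.21 in replicate t31. In that library the aca entries had the opposite order, so the order before surgery was not the same under every species. After surgery the order of the cpi entries varied between libraries. mir-145 had more counts in T1 replicates t50 and t53 and T2 replicates t36 and t51, whereas T1 replicate t38 had 239 counts on mir-143 and 6 on mir-145, a ratio of 39.8. No difference between the means passed a two-sided exact permutation test (adjusted p = 0.897 for each of the 3 pairs of time points). For T2 against T0 the difference was -0.38, and it was -1.09 without T2 replicate t39, the library with 0 counts on mir-145 (p = 0.0351 and adjusted p = 0.105, exact permutation test).

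The ratio of the 2 arms of mir-145 varied as widely. The log2 ratio of 3p to 5p was 1.39 ± 1.05 (SD, n = 8) before surgery, 1.82 ± 2.22 at T1 and 1.82 ± 1.89 at T2. T1 replicate t35 had 220 counts on 3p and 10 on 5p, while T1 replicate t38 had 6 and 19. Differences between time points were 0.43 for both T1 and T2 against T0 and did not pass (adjusted p = 0.932 for both, exact permutation test). For mir-143 the log2 ratio of 5p to 3p was 5.86 ± 1.35 before surgery, 6.11 ± 1.14 at T1 and 5.30 ± 1.21 at T2, with adjusted p between 0.573 and 0.694 by the same exact permutation test. The 3p count was at 0 in 4 of the 24 libraries, where the ratio rests on the added 0.5.

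No correlation between the 2 clustered miRNAs was detected across libraries. Over the 8 libraries of a time point, Pearson's r of cpi-mir-143-5p with cpi-mir-145-3p on log2 CPM was 0.18 before surgery, -0.08 at T1 and -0.19 at T2, with adjusted p = 0.861 for each of the 3 by exact permutation of the pairings. Spearman's rho was 0.21, 0.00 and 0.26, with adjusted p of 0.929, 1 and 0.929 by the same exact permutation. With the 2 libraries farthest from the median of mir-143 left out, r was 0.38, 0.17 and -0.48. With library totals alone in place of TMM it was 0.22, -0.50 and -0.40. At T2 the value turned on 1 library, and without replicate t39 it was 0.75 (p = 0.0554, adjusted p = 0.166, exact permutation, n = 7). At T1 it was 0.36 without replicate t38, which had the highest mir-143 and the lowest mir-145 of that time.

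cpi-mir-143-5p was also set against the less counted arm of mir-145. Over T0, T1 and T2 its r with cpi-mir-145-5p was 0.07, 0.82 and 0.74, with unadjusted p of 0.861, 0.0138 and 0.0299 by exact permutation. These 9 relations among the 3 kept cpi entries were computed after the values were seen, and adjusted over them the p was 0.125 at T1 and 0.135 at T2 (exact permutation). rho was -0.17, 0.81 and 0.55. With the 2 libraries farthest from the median of cpi-mir-143-5p left out, r was 0.47, 0.65 and 0.27, so at T2 it rested on replicates t33 and t48, and without t39 alone it was 0.86 there. Between the 2 arms of mir-145 r was 0.26, -0.33 and 0.29 in the same order, with an adjusted p of 0.861 at each time by exact permutation. Whether these values of r differ from one another was not tested.

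**Figure D4:**
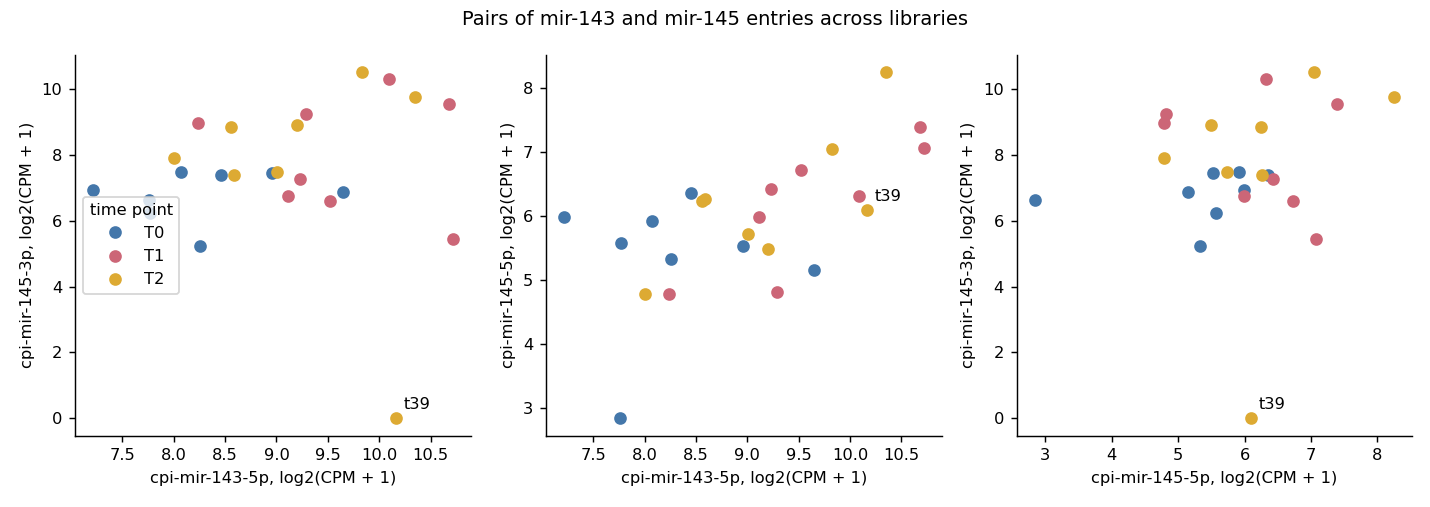
log2(CPM + 1) of the 3 kept cpi entries set against each other over the 24 libraries, coloured by time point. For cpi-mir-143-5p with cpi-mir-145-5p r is 0.82 at T1 and 0.74 at T2, neither passing after adjustment. For cpi-mir-143-5p with cpi-mir-145-3p r is -0.08 and -0.19, with replicate t39 at 0. Without t39 r at T2 is 0.86 for the first pair and 0.75 for the second.

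Over all 24 libraries and after subtraction of the time point means, the cpi entries were ranked by their correlation with each member, as a description. These libraries share 8 turtles and differ in depth. The 5 entries most like cpi-mir-143-5p were cpi-mir-125a-3p (r = 0.61), cpi-mir-145-5p (0.55), cpi-mir-27b-5p (0.52), cpi-mir-30a-3p (0.51) and cpi-mir-184-5p (0.49), and cpi-mir-145-3p stood 115th of 197 with an r of -0.10. The 5 most like cpi-mir-145-3p were cpi-mir-23a-5p (r = 0.87), cpi-mir-199-1-3p (0.84), cpi-mir-30d-3p (0.76), cpi-mir-365-1-5p (0.75) and cpi-mir-199-2-3p (0.75). mir-199 is known from fibroblasts and other connective tissue cells in mammals. Replicate t39 carried much of the second ranking. Without it cpi-mir-199-1-3p stood 10th with an r of 0.57 and cpi-mir-199-2-3p 29th with 0.39, the first place went to cpi-mir-2188-3p (0.76), and cpi-mir-143-5p stood 62nd with 0.20. cpi-mir-125a-3p and cpi-mir-145-5p stayed the 2 entries most like cpi-mir-143-5p, with r of 0.63 and 0.58.

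The level of cpi-mir-145-3p was also set against sequencing depth, and at no time point did a relation pass the adjusted limit for correlations. Its r with the log10 of the total count was 0.83 at T1 (rho = 0.90) and 0.86 at T2 (rho = 0.45), and -0.38 at T0 (rho = -0.19), while cpi-mir-143-5p had -0.19, -0.36 and -0.48. These are among 42 relations computed after the values were seen, and adjusted over them the p for cpi-mir-145-3p was 0.199 at T1 and 0.230 at T2 by exact permutation (0.0958 and 0.864 for rho). With the 2 totals farthest from the median left out, r was 0.62 at T1 and 0.52 at T2, and without T2 replicate t39 alone it was 0.41 at T2. With the total count as a covariate in the edgeR fit, the log2 fold change of cpi-mir-145-3p was 1.39 at T1 and 1.59 at T2 (adjusted p = 0.515 and 0.622 by edgeR), against 1.87 and 2.02 without it. That of cpi-mir-143-5p was 1.40 and 0.95, against 1.37 and 0.96. In that fit the log2 change per 10-fold total was 1.94 with a standard error of 0.73 for cpi-mir-145-3p (adjusted p = 0.139 by edgeR). For cpi-mir-143-5p it was -0.59 with a standard error of 0.38 (adjusted p = 0.400 by edgeR), and 32 of 690 entries had an adjusted p within 0.1. The part of depth in these differences was otherwise not tested.

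**Figure D5:**
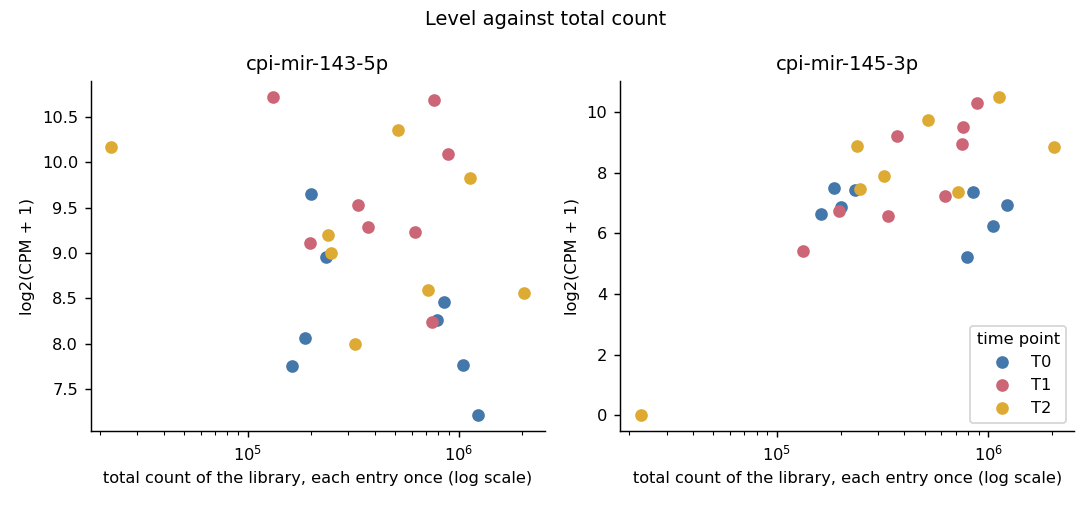
log2(CPM + 1) of cpi-mir-143-5p and cpi-mir-145-3p against the total count of the library, each entry counted once (horizontal, log scale), coloured by time point. For cpi-mir-145-3p r is 0.83 at T1 and 0.86 at T2, neither passing after adjustment, with replicate t39 at the lowest total and at 0. Without t39 r is 0.41 at T2.

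Other miRNAs known from vessel walls and connective tissue were compared as a group. Of the 49 tested entries of a list of mir-21, mir-22, mir-100, mir-126, mir-199, mir-214, mir-221 and mir-222 under all species, 0 were called in either direction at T1 or T2 by edgeR, and their median log2 fold change was 0.24 at T1 and -0.14 at T2, against 1.37 and 1.03 for the 12 entries of mir-143 and mir-145 and 0.09 and -0.03 for all entries. cpi-mir-126-5p, from an endothelial hairpin, had the largest value of the cpi entries at T1, a log2 fold change of 0.96 (adjusted p = 0.512 by edgeR), and 0.37 at T2. The most abundant was cpi-mir-21-3p, with medians of 2266, 2527 and 2072 CPM over T0, T1 and T2. The summed CPM of the cpi entries of this group ran from 5586 to 8087 at T0, from 4444 to 12685 at T1 and from 3542 to 8322 at T2. At T1 it was lower where cpi-mir-145-3p was higher, with an r of -0.78 (p = 0.0281, adjusted p = 0.237, exact permutation) and a rho of -0.71. At T0 and T2 r was -0.17 for both. With the 2 farthest libraries left out r was -0.65, -0.84 and 0.75 over T0, T1 and T2, so its sign at T2 turned on those libraries.

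Markers of other cells were set beside the members, since plasma can hold their RNA. The white cell list held mir-142, mir-150 and mir-223, but no cpi entry of mir-150 passed the filter. The summed CPM of its cpi entries had medians of 3754, 2269 and 4010 over T0, T1 and T2. Most of this sum was mir-223, with means of 1878 CPM for cpi-mir-223-3p and 1575 for cpi-mir-223-5p. The highest mir-142 entry had a mean of 254.4. The r of this sum with cpi-mir-145-3p was -0.27, 0.68 and 0.81 in that order, with p = 0.506, 0.0688 and 0.0025 and an adjusted p of 0.850, 0.361 and 0.105 by exact permutation, and at T2 it was 0.80 without replicate t39. rho was -0.26, 0.57 and 0.76, and r with the 2 farthest libraries left out was -0.53, 0.40 and 0.86. With cpi-mir-143-5p the same sum had r of 0.06, -0.19 and 0.06, which was -0.36, -0.66 and 0.73 with the 2 farthest libraries left out and 0.50 at T2 without t39. Of the 23 white cell entries tested, 0 were called at T1 or T2 by edgeR, and their median log2 fold change was -0.49 and -0.62. At T2 the 2 markers differed in sign, and 8 of the 23 entries were above 0. cpi-mir-223-5p had 0.78 and cpi-mir-223-3p 0.08, while the cpi entries of mir-142 were between -1.49 and -0.59.

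The liver miRNA cpi-mir-122-3p ran from 2598 to 58673 CPM at T0, from 2324 to 108060 at T1 and from 1597 to 31961 at T2, with log2 fold changes of 1.35 and -0.50 (adjusted p = 0.660 and 0.916 by edgeR). It was highest in T1 replicates t32 and t50, which were also the highest T1 libraries for cpi-mir-145-3p and, after replicate t38, for cpi-mir-143-5p. Its r with cpi-mir-143-5p at T1 was 0.66 (adjusted p = 0.366, exact permutation), with a rho of 0.69, and r was 0.43 without those 2 libraries. With cpi-mir-145-3p r was 0.21 (adjusted p = 0.850, exact permutation), with a rho of 0.17, and r was -0.75 without them. TMM scaled these libraries by 0.65 and 0.67, where all others had factors of 0.87 to 1.33. With library totals alone in place of TMM, the log2 fold change at T1 was 1.22 for cpi-mir-143-5p and 1.57 for cpi-mir-145-3p (adjusted p = 0.346 for both by edgeR).

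Among the epithelial miRNAs, mir-203-5p was the 1 miRNA called in any list. Its aca, ami and oha entries were higher at T1, with log2 fold changes of 2.06, 2.04 and 2.06 (adjusted p = 0.0678, 0.0865 and 0.0678 by edgeR), while for cpi-mir-203-5p the value was 1.67 (adjusted p = 0.353 by edgeR). The aca, ami and oha entries are 3 of the 4 called among all 690. The paper's RT-qPCR went the other way, with miR-203-5p lower at 2.5 h than before surgery, and significantly lower at 36 h. The summed epithelial entries had an r of 0.81 with cpi-mir-143-5p at T1 (adjusted p = 0.199, exact permutation), 0.53 with the 2 farthest libraries left out, and -0.68 at T0. At T1 rho was 0.93 (adjusted p = 0.0938, exact permutation). Of the 6 cpi muscle entries 0 were called, and their median log2 fold change was -1 at T1 and -1.60 at T2, with 2 of 6 above 0 at each time. The most abundant of them, cpi-mir-206-5p, had 1.44 at T1 (adjusted p = 0.625 by edgeR), cpi-mir-499-3p had 1.96 at T1 and 1.41 at T2 (adjusted p = 0.353 and 0.577 by edgeR), and the 4 entries of mir-1a and mir-133a were between -1.43 and -0.99 at T1. The red cell entries cpi-mir-451-3p and cpi-mir-144-3p had 0.36 and -0.33 at T1 (adjusted p = 0.936 and 0.952 by edgeR). The summed muscle and red cell entries had no adjusted p under 0.361 with either member by exact permutation, and at T2 without replicate t39 the red cell sum had an r of 0.82 with cpi-mir-145-3p. The part of these other cells in the levels of mir-143 and mir-145 was not tested.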

How the data were processed

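Small RNA of 24 plasma libraries was sequenced, with the time point of each taken from the labels. The labels name another extraction kit than the one the paper selected. The authors removed adapters (Cutadapt) and reads under 14 nt, mapped the remainder with BWA to miRBase precursors of saurian species and deposited raw counts of reads per mature entry. From these counts, 1 row per entry, edgeR (version 4.0.16 in R 4.3.3) filtered with filterByExpr, normalized by TMM and fitted all 24 libraries in a quasi-likelihood model with Benjamini-Hochberg adjustment over 690 entries. Log2 CPM for correlations used a prior count of 1. Ratios and correlations were tested over all 12870 assignments of 8 libraries against 8, or all 40320 pairings, in Python 3.11.15 (scipy 1.17.1), at an adjusted p of at most 0.05. DESeq2 (version 1.42.0), other scaling, filters and sets of entries, and each library left out were alternatives. No pairing by turtle or batch was possible. Depth limits precision: T2 replicate t39 has 5837 cpi counts. Counts were simulated for T1 against T0 over 690 entries, all with the common dispersion of 0.453. There edgeR called 22.0% of entries raised by a log2 fold change of 1, 90.0% of those raised by 2 and 1.47% of unchanged ones. Of entries lowered by 1 and by 2 it called 38.6% and 94.4%. Many entries were changed at once and all shared 1 spread, so these shares do not give the power for mir-143 or mir-145. Replicates are libraries of different turtles by the series' design. The members, lists and tests were chosen with earlier results of these data known. Named entries are all mir-143 and mir-145 entries and the 5 cpi entries most correlated with each. For each list the rule was the called or, failing that, the most abundant cpi entry. For the epithelial list mir-203-5p is named instead, called under other species only. Outside the rule are cpi-mir-499-3p, cpi-mir-144-3p, cpi-mir-223-5p, the cpi entries of mir-1a, mir-133a and mir-142, and the hairpins named for their arms. cpi-mir-126-5p and cpi-mir-2188-3p, and the correlations with depth and lists, were added after the values were seen.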

Additional observations from a re-analysis of the deposited data

Results flagged for a closer look

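Within the 8 libraries of a time point, the distance of an extreme library from its neighbour, as a share of the whole range, was compared with Dixon's 95% critical value, for the 4 cpi entries on log2(CPM + 1) and the 3 ratios. Of 21 such groups 5 exceeded it, while about 1 in 20 does by chance, and the groups share libraries and counts. T2 replicate t39 accounts for 3 of them. It stood lowest for cpi-mir-145-3p (0.702), with 0 counts, highest for the ratio of mir-143 to mir-145 (0.675) and lowest for the ratio of the 3p to the 5p arm of mir-145 (0.595), and it has the lowest total of all libraries. T0 replicate t40 stood lowest for cpi-mir-145-5p (0.658), with 1 count. T1 replicate t44 stood lowest for cpi-mir-143-3p (0.586), with 0 counts. The cause of these values was not tested.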

How the results depend on the processing

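No paired analysis was possible because the labels name no turtle. In the 11 or 12 alternatives to each edgeR comparison other than leaving out a library, the log2 fold changes of the cpi entries kept their sign. DESeq2 gave a call for cpi-mir-143-5p and cpi-mir-145-3p at T1 (1.35 and 1.89) and for both times together (1.18 and 1.96), and called 16 entries at T1, 1 at T2 and 18 together. Other counts of called entries against 4, 0, 0 and 1 were, at T1, 0 without TMM, without a filter, summed over species, with 2 time points alone or without the lowest library of each time, 1 with cpi alone and 8 with all deposited rows. At T2 the count was 1 without TMM, with cpi alone, summed over species or with 2 time points alone. For both times together it was 0 without a filter or with the total count as covariate, chosen after seeing the data, and 2 with all rows. With the unadjusted limit it was 29, 35, 25 and 36 in the order T1 against T0, T2 against T0, T2 against T1 and both together. The 3p to 5p ratio of mir-145, T2 against T1, was 0.075 with a pseudocount of 1 and 0.59 without libraries under 10 counts. The T1 correlation of mir-143 with mir-145 was 0.17 without the 2 farthest libraries and -0.50 without TMM.

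With each library left out in turn, cpi-mir-143-5p ranged from 1.15 to 1.63 at T1 and from 0.98 to 1.42 for both times together, called only without T0 replicate t49. For T2 against T0, cpi-mir-145-5p ranged from 0.56 to 1.24. For T2 against T1, cpi-mir-145-3p ranged from -0.21 to 0.75 and cpi-mir-145-5p from -0.22 to 0.58. Called entries ranged from 0 to 6 at T1, highest without t49, from 0 to 1 at T2 and from 0 to 11 together, highest without T1 replicate t44. The log2 ratio of mir-143 to mir-145 ranged from -0.41 to 0.44 for T1 against T0 and from -1.20 to 0.034 for T2 against T1. The mir-145 arm ratio ranged from -0.49 to 0.59 for T2 against T1, and that of mir-143 from -0.078 to 0.55 for T1 against T0. The correlation of mir-143 with mir-145 ranged from -0.32 to 0.36 at T1 and from -0.42 to 0.75 at T2. The cause of these changes was not tested. Depth limits what the 3p arm of mir-143 and T2 replicate t39 can show, and the alternative without libraries under 10 counts gave no separate value for the ratios of mir-143 to mir-145 and of the arms of mir-143.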
